A study of Homo sapiens with 4 samples.

Results

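The locus of miR-144 and miR-451a is a short stretch of chromosome 17 that yields some of the best known miRNAs of red blood cell precursors. It is described here by 6 mature miRNAs taken by name, hsa-miR-451a, hsa-miR-451b, hsa-miR-144-5p, hsa-miR-144-3p, hsa-miR-4732-5p and hsa-miR-4732-3p (the prefix for human is left off below), out of 2366 human miRNAs counted. All 6 had a row, and 3 of them had enough reads to be tested.

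Counts came from small-RNA sequencing of K562-dCas9-KRAB cells, in which ERH knockdown was compared with control. K562 is an established human leukaemia line with erythroid features, and dCas9-KRAB is a Cas9 that cannot cut, fused to a KRAB repressor domain and steered to a gene's start by a guide RNA to silence it (CRISPR interference). ERH knockdown libraries came from cells carrying 1 of 2 ERH guide RNAs and kept for 5 days with 0.05 µg/ml doxycycline. Control libraries came from the same polyclonal line of each guide RNA after 5 days without doxycycline, so controls carried the same repressor and guide. Each group thus had 2 libraries, 1 per guide RNA. No library had doxycycline without an ERH guide, so ERH knockdown and doxycycline cannot be told apart. ERH mRNA is not measured by small-RNA sequencing, and the extent of knockdown was not checked.

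A miRNA is made from a hairpin in a longer primary transcript. The Microprocessor complex, made of the nuclease DROSHA and its partner DGCR8, cuts the hairpin out, and for most miRNAs the nuclease Dicer then removes its loop to leave a 5p and a 3p arm. ERH is known as a partner of the Microprocessor that helps it cut some hairpins that are poor substrates on their own when a better hairpin lies nearby, and the study's title names this as its question. The miR-451a hairpin has a short stem that Dicer does not cut and is matured by the slicer Argonaute 2, while miR-144 takes the usual route. Both are switched on by GATA1 in maturing red blood cells, where miR-451a represses YWHAZ and miR-144 represses NFE2L2, a regulator of the response to oxidative stress.

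The hairpins lie within 362 bases (GRCh38, GENCODE 29). Along the minus strand, the order is MIR4732 at chr17:28861655-28861730, MIR144 at chr17:28861533-28861618 and MIR451A at chr17:28861369-28861440. All 3 lie within the only exon of AC024267.1, a long noncoding RNA (chr17:28861072-28861966), just past the end of the protein-coding gene ERAL1, which runs the other way. MIR4732 and MIR144 are 36 bases apart, and MIR144 and MIR451A are 92 bases apart. MIR451B is annotated on the plus strand at chr17:28861371-28861438, so all 68 of its bases lie opposite MIR451A.

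**Figure D1:**
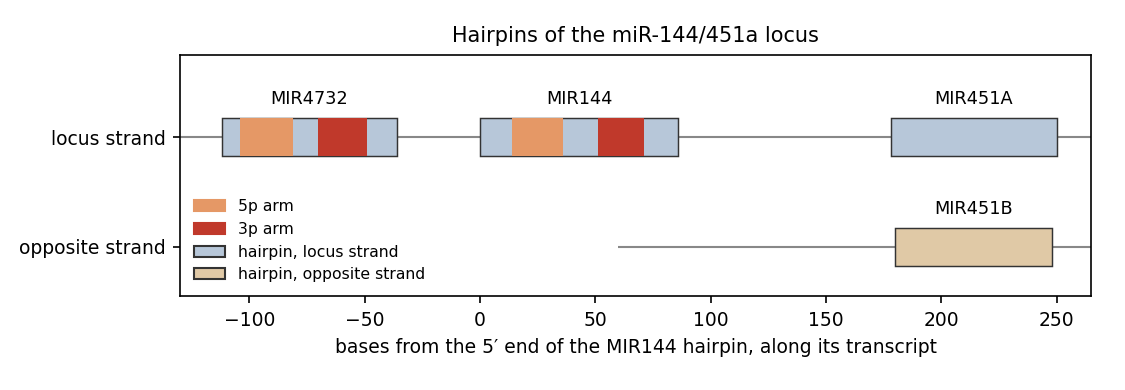
Positions of the 4 hairpins, in bases from the 5′ end of the MIR144 hairpin along its transcript (horizontal axis), on the strand of the locus (upper row) and on the opposite strand (lower row). Coloured blocks are the mature arms of miR-144 and miR-4732, and MIR451B overlaps MIR451A over 68 bases.

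The mature arms and hairpins of miR-144 and miR-4732 are shown because the results set the output of these hairpins against that of miR-451a. Sequences are from RefSeq (GRCh38.p14), and 4 of the 6 members had a mature sequence there; miR-451a and miR-451b are named only. Capitals mark the seed, bases 2 to 8 from the 5′ end, which does most of the pairing with target mRNAs.
miR-144-5p: gGAUAUCAucauauacuguaag
miR-144-3p: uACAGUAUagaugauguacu
miR-4732-5p: uGUAGAGCagggagcaggaagcu
miR-4732-3p: gCCCUGACcuguccuguucug

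In the hairpins, capitals mark the 5p arm and then the 3p arm.
MIR144 hairpin: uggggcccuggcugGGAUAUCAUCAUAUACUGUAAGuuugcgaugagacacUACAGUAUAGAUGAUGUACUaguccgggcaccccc
MIR4732 hairpin: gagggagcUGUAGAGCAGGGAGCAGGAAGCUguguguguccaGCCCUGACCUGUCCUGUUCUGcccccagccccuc
The predicted fold of the MIR144 hairpin (RNAfold) had 34 base pairs and a free energy of -45.0 kcal/mol, and 19 of the 22 bases of the 5p arm were paired. That of MIR4732 had 27 base pairs and -36.9 kcal/mol, with 19 of the 23 bases of the 5p arm paired. Below the start of the 5p arm, 12 bases of the MIR144 stem were paired, against 7 in MIR4732.

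No 2 of these 4 arms share a seed. miR-144-3p shares bases 2 to 7 with miR-101-3p, a miRNA of other chromosomes, and the 2 part at base 8. In the pair below, capitals mark bases 2 to 7.
miR-144-3p: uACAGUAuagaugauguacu
miR-101-3p: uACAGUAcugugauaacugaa

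Reads on human miRNAs numbered 2227374 (guide RNA 1) and 2393565 (guide RNA 2) after knockdown, against 1430434 and 2476700 in controls. Of 5 erythroid-enriched miRNAs fixed as markers of the labelled cells, 3 are members of the locus; the 5 took 5.17% to 5.37% of reads after knockdown and 4.01% to 4.10% in controls. The other 2, both arms of miR-486, took 0.824% to 0.856% after knockdown and 0.673% to 0.692% in controls. The 4 myeloid-enriched miRNAs took 10.2% to 10.3% after knockdown and 11.1% in both controls. Of 11 miRNAs fixed as markers of liver, neurons, muscle and epithelium, 9 had a row, and together they took 0.164% to 0.167% after knockdown and 0.108% to 0.113% in controls. Their part in the results was not tested. All these shares are by library size, a scale on which the median tested miRNA rose by 0.50 (log2 fold change, edgeR). Of the 9 markers of other tissues with a row, the muscle marker miR-206 was at 0 in all 4 libraries. The most abundant was miR-145-5p. With guide RNA 1 it had 2572 reads after knockdown against 1066 in the control, and with guide RNA 2 it had 2684 against 1642. Only 4 of the 9 were tested. With TMM, miR-145-5p (log2 fold change 0.26) and miR-200c-3p (0.35) were called up, while miR-9-5p (-0.20) and miR-141-3p (0.21) were not called (edgeR).

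The neighbours of the locus parted between ERH knockdown and control. Relative to the bulk of tested miRNAs, both arms of miR-144 rose and miR-451a fell, so that there were 1.35 ± 0.10 reads of miR-451a per read of miR-144-3p after knockdown, against 3.15 ± 0.03 in controls (SD, n = 2 each). All 3 tested members passed the test, 2 up and 1 down (edgeR quasi-likelihood test, Benjamini-Hochberg adjusted p under 0.05). Of all 464 tested miRNAs 50.9% passed too, with 25.6% up and 25.2% down, so that passing the test does not set the locus apart. All 3 members also had TMM-scaled levels that did not overlap between the groups, as 76.3% of tested miRNAs did.

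miR-451a was the most abundant member. After knockdown 53617 (guide RNA 1) and 57755 reads (guide RNA 2) fell on it, against 36108 and 60800 in the matching controls. As a share of all miRNA reads, it took 2.41% and 2.41% after knockdown and 2.52% and 2.45% in controls, and it ranked 8th of all miRNAs in each of the 4 libraries. The raw shares thus hardly differed, although both knockdown libraries were below both controls. Scaled by TMM, which sets the bulk of miRNAs level between libraries, it averaged 20712 ± 507 CPM (counts scaled to a common library total) after knockdown and 28972 ± 495 in controls (SD, n = 2 each).

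On that scale miR-451a fell by 0.48 ± 0.05 (log2 fold change and SE, adjusted p = 8.6e-07, edgeR), to 0.715 of the control level. The change was -0.49 with guide RNA 1 and -0.48 with guide RNA 2. The fall is relative to the other miRNAs, and it rests on the scaling: with library size alone the value was -0.05 ± 0.05 (adjusted p = 0.43, edgeR), and with the added spike-in RNAs it turned to 0.21 ± 0.39 (adjusted p = 0.67, edgeR). The median of all tested miRNAs lay 0.44 higher on the log2 scale with library size and 0.68 higher with spike-ins than with TMM.

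miR-144-3p, the arm of miR-144 known as its main product, had 41660 and 40602 reads in knockdown libraries, against 11527 and 19156 in control libraries. It took 1.87% and 1.70% of miRNA reads after knockdown, against 0.806% and 0.773% in controls. Its rank among all miRNAs was 9 and 10 in the knockdown libraries and 21 in both controls. The groups did not overlap, and the share after knockdown was 2.32 times that in the matching control with guide RNA 1 and 2.19 times with guide RNA 2. TMM-scaled, it averaged 15314 ± 708 CPM after knockdown and 9188 ± 71 CPM in controls (SD, n = 2 each), a log2 fold change of 0.74 ± 0.05 (SE, adjusted p = 1.7e-08, edgeR).

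miR-144-5p, the less abundant arm, had 5256 and 5789 reads in knockdown libraries, against 1411 and 2302 in control libraries. That is 2360 and 2419 CPM after knockdown and 986 and 929 CPM in controls, by library size. It ranked 47 and 45 among all miRNAs after knockdown and 74 and 73 in controls. Its groups did not overlap either, and its log2 fold change was 0.88 ± 0.06 (SE, adjusted p = 1.1e-08, edgeR). Both arms stayed up and called under every scaling tried, with values from 0.69 (RLE) to 1.42 (spike-ins) for miR-144-3p and from 0.83 (RLE) to 1.58 (spike-ins) for miR-144-5p.

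**Figure D2:**
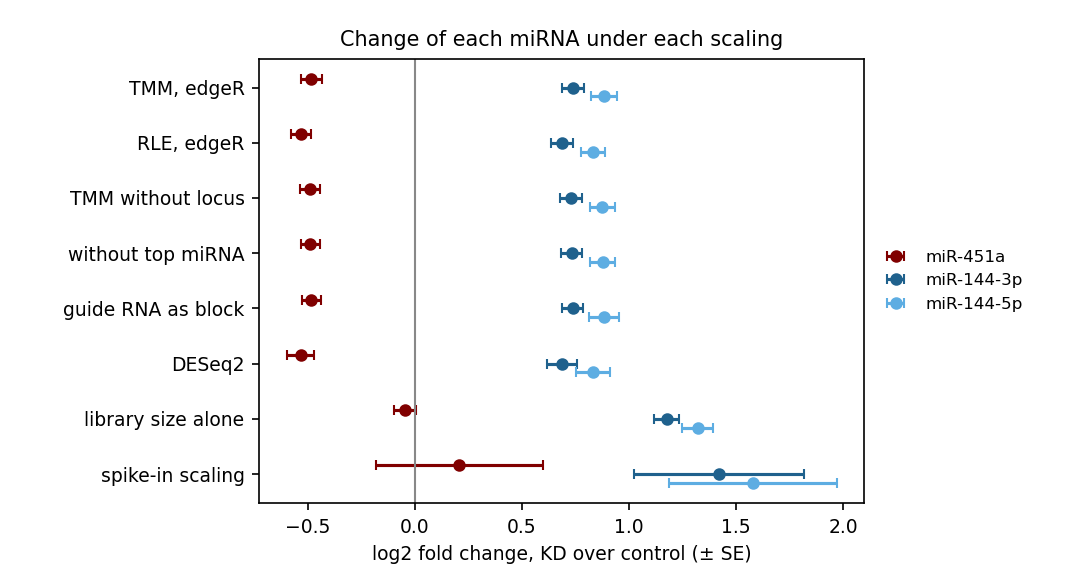
Log2 fold change of ERH knockdown over control (horizontal axis, points with SE bars) for miR-451a, miR-144-3p and miR-144-5p under 8 ways of scaling or fitting the counts (rows). Both miR-144 arms lie above 0 in every row, and miR-451a lies near -0.5 in the upper rows, at -0.05 with library size and at 0.21 with spike-ins.

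miR-4732, whose hairpin lies first in the transcript, was near the limit of detection. miR-4732-5p had 4 and 2 reads in knockdown libraries and 0 and 1 in control libraries. For miR-4732-3p they were 4 and 3 in knockdown libraries and 1 and 1 in control libraries. With both arms and both libraries of a group summed, that is 13 reads after knockdown and 3 in controls, or 2.81 CPM against 0.768 CPM, a ratio of 3.66 with a 95% counting interval of 1.01 to 20.0. The interval covers counting error only and compares these libraries, not the conditions. The 0 of control guide RNA 1 allows up to 2.10 CPM.

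No read of miR-451b was counted in any library, while the opposite strand gave up to 60800 reads of miR-451a. The counts of 0 allow up to 1.35 and 1.25 CPM after knockdown and 2.10 and 1.21 CPM in controls. Neither arm of miR-4732 nor miR-451b passed the filter on low counts, so no fold change was fitted for these 3.

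**Figure D3:**
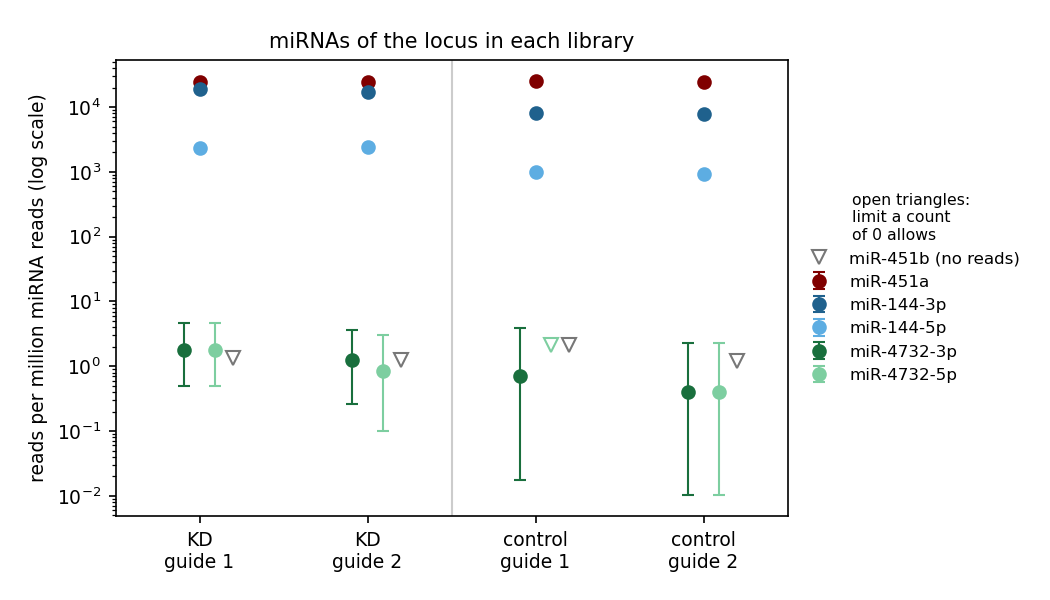
CPM by library size (vertical axis, log scale) of the 6 miRNAs in each library, with 95% exact binomial intervals for counting error. In the 2 knockdown libraries miR-144-3p sits just under miR-451a, and in the 2 controls the gap is wider; open triangles mark the upper limit that a count of 0 allows.

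The order of levels was the same in all 4 libraries, with miR-451a above miR-144-3p, miR-144-3p above miR-144-5p, and the other 3 members far below. Among those 3 the counts were too low to give an order. The gap at the top narrowed after knockdown. As shares of all reads of the locus, miR-451a took 53.3% and 55.5% after knockdown and 73.6% and 73.9% in controls. miR-144-3p took 41.4% and 39.0% after knockdown and 23.5% and 23.3% in controls. The locus as a whole gave 4.51% and 4.35% of all miRNA reads after knockdown, against 3.43% and 3.32% in controls.

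A ratio of 2 counts within a library needs no scaling between libraries, and it is the measure that tells whether neighbours part. For each read of miR-144-3p there were 1.29 and 1.42 reads of miR-451a after knockdown, against 3.13 and 3.17 in controls. The 95% counting intervals were 1.27 to 1.30 and 1.40 to 1.44 after knockdown, against 3.07 to 3.20 and 3.12 to 3.23 in controls. The knockdown libraries thus lay far below the controls, with a change of -1.28 on the log2 scale with guide RNA 1 and -1.16 with guide RNA 2. The ratio was 2.43-fold lower with guide RNA 1 and 2.23-fold lower with guide RNA 2. Both falls were larger than the log2 spread between libraries of a group (SD 0.10 after knockdown, 0.01 in controls). An exact permutation test of 2 libraries against 2 gave p = 0.33 (two-sided), the smallest it allows.

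Against the other arm the picture was the same. Reads of miR-451a per read of miR-144-5p numbered 10.2 and 9.98 after knockdown, against 25.6 and 26.4 in controls, a mean log2 change of -1.37 (exact permutation p = 0.33, n = 2 each). With both arms of miR-144 summed, it was 1.14 and 1.24 after knockdown and 2.79 and 2.83 in controls.

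The arms of miR-144 moved nearly together with guide RNA 1 and less so with guide RNA 2. For each read of the 3p arm there were 0.126 and 0.143 reads of the 5p arm after knockdown and 0.122 and 0.120 in controls. The groups did not overlap, but with guide RNA 1 the counting intervals did (0.123 to 0.130 after knockdown, 0.116 to 0.129 in control). With guide RNA 2 the intervals were apart (0.139 to 0.147 after knockdown, 0.115 to 0.125 in control). The log2 change was 0.04 (guide RNA 1) and 0.25 (guide RNA 2), and its mean of 0.15 was close to the spread between the knockdown libraries (SD 0.12; exact permutation p = 0.33). Among 101 hairpins with both arms tested, the median size of this change was 0.22, and the groups did not overlap in 51.5% of them.

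**Figure D4:**
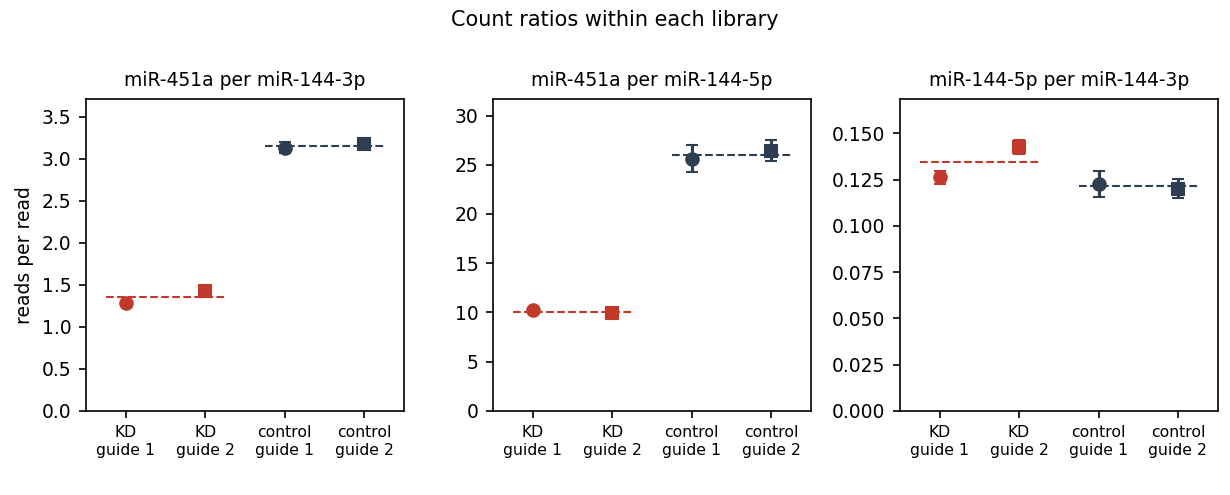
Reads of 1 miRNA per read of another within each library (vertical axes, from 0), with 95% counting intervals; dashed lines are group means, circles are guide RNA 1 and squares guide RNA 2. Both ratios with miR-451a on top are lower in the 2 knockdown libraries, and the ratio of the miR-144 arms differs far less, mainly with guide RNA 2.

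To place the parting of miR-451a and miR-144-3p, the same change was computed for 84 pairs of hairpins within 10 kb on 1 strand. Only tested miRNAs that matched 1 hairpin gene were used, and among these the miRNA with the most reads represented its hairpin. MIR16-1, for example, was represented by miR-16-1-3p (mean 163 reads), because miR-16-5p matched several hairpin genes. The median size of the change was 0.29 on the log2 scale. The pair of the locus, at 1.22, came 8th, and 9.52% of pairs changed as much or more, itself included. Pairs were not independent, since 1 hairpin could enter several of them, and 36 of the 84 lay on chromosome 19. Non-overlap alone is common, since the groups did not overlap for 66.7% of pairs. Of the 7 pairs that changed more, 6 held a miRNA with a mean under 100 reads. The other was the pair of miR-18a-3p and miR-19a-5p, with means of 7546 and 1041 reads, which changed by 1.34. Only these arms of their hairpins were among the tested miRNAs, so how their other arms changed is not known here. Among the 5 pairs in which both miRNAs had a mean of at least 10000 reads (a level chosen after the values were seen), the other 4 changed by 0.06 to 0.15. These 4 were pairs of miR-93-5p, miR-106b-5p and miR-25-3p, and the pair of miR-17-5p and miR-20a-5p. They do not stand for all abundant neighbours, since miRNAs of several hairpin genes were left out. Among those left out, miR-16-5p, miR-19b-3p and miR-92a-3p had log2 fold changes of -0.30, -0.58 and -0.72. Their neighbours miR-15a-5p and miR-17-5p stood at -0.80 and -0.45 (edgeR).

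**Figure D5:**
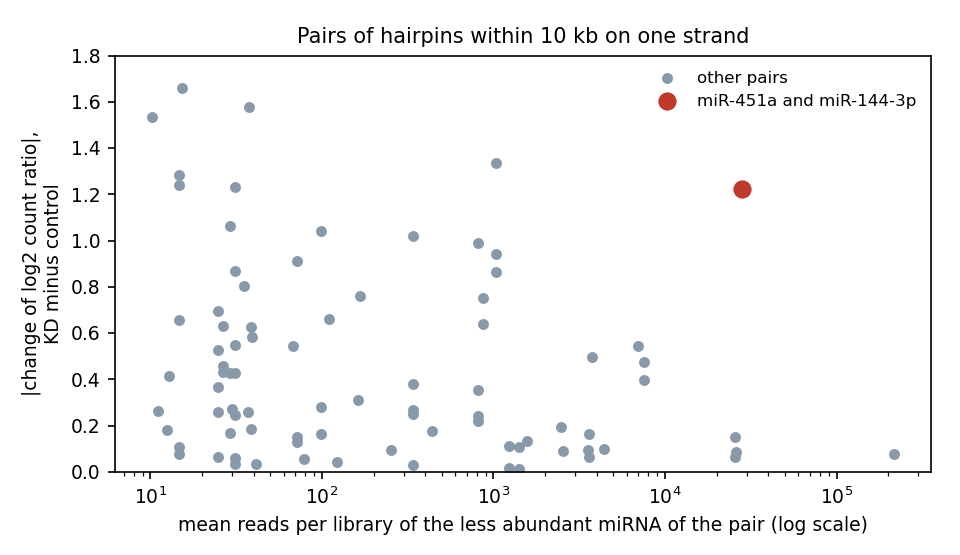
Size of the change in log2 count ratio between ERH knockdown and control (vertical axis) for 84 pairs of hairpins within 10 kb on 1 strand, against the mean reads per library of the less abundant miRNA (horizontal axis, log scale). The pair of miR-451a and miR-144-3p (red) stands at 1.22, and the other 4 plotted pairs with at least 10000 reads lie at 0.15 or below. Abundant miRNAs that matched several hairpin genes are not plotted.

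The set of abundant miRNAs gives another background. Of 32 tested miRNAs with a mean of at least 10000 reads, 25 fell, 6 were not called, and miR-144-3p was the 1 that rose. Without knockdown replicate 1 the number that fell was 16, and with a filter at a mean of 10 CPM 3 rose. The next highest value among them was that of miR-185-5p, at 0.10 ± 0.05 (SE, not called, adjusted p = 0.11, edgeR). miR-451a came 12th from the bottom of these 32, with values of the others ranging down to that of miR-15a-5p (-0.80 ± 0.05, adjusted p = 4.1e-09, edgeR), the partner of miR-16 in its own cluster. The calls are relative to the bulk of miRNAs: with library size 17 of the 32 rose and 8 fell, and with spike-ins 1 rose and 0 fell. miR-144-3p had the highest fold change of the abundant miRNAs under each scaling tried.

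Set against every other tested miRNA with reads in all libraries, the count ratio of miR-144-3p was higher in both knockdown libraries than in both controls for 325 of 462 (70.3%) and lower for 41. The same held for miR-144-5p against 347 and the reverse against 29. For miR-451a the ratio was lower after knockdown against 334 of 462 (72.3%) and higher against 57. By log2 fold change, miR-144-3p ranked 87 and miR-144-5p 63 from the top of 464, and miR-451a 79 from the bottom.

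The miRNAs nearest in pattern were found by the root mean square (RMS) of the centred log2 count ratio over the 4 libraries, which is 0 for a ratio that never changes. They were sought among miRNAs with a mean of at least 100 reads. Nearest to miR-451a were miR-17-5p (RMS 0.02), miR-452-5p (0.02), miR-20a-5p (0.03) and miR-15b-3p (0.03), where the median of 215 miRNAs was 0.23. Their log2 fold changes were -0.45, -0.46, -0.53 and -0.46, all called. Values and calls like those of miR-451a follow from how these 4 were picked. Each lost its call with library size and turned positive and uncalled with spike-ins, as listed with the alternatives. The neighbour of miR-451a, miR-144-3p, ranked 204 of 215, with an RMS of 0.61.

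Nearest to miR-144-3p were miR-505-3p (RMS 0.03), miR-548d-3p (0.06), miR-326 (0.08) and miR-185-3p (0.09), against a median of 0.43. These 4 rose by log2 fold changes of 0.75, 0.66, 0.58 and 0.62, and a rise like that of miR-144-3p follows from how they were picked. miR-505-3p, the closest, had 1383 and 1412 reads in knockdown libraries, against 379 and 656 in control libraries. The other arm of its own hairpin, miR-144-5p, ranked 5th (RMS 0.10), and miR-451a ranked 173.

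Of 4 other miRNAs listed as erythroid-enriched, 0 rose, 2 fell and 2 were not called (edgeR). The list held both arms of miR-486, miR-22-3p and miR-210-3p, and the last 2 were not among the markers fixed above. Of all tested miRNAs 25.6% rose and 25.2% fell, so the share of the list called was near that of the whole table (50.9%). The 4 had a median log2 fold change of -0.14 against 0.06 for all tested miRNAs. At an unadjusted p under 0.05, 0 rose in edgeR, and DESeq2 called 0 up; with library size alone, 3 of the 4 were called up. miR-486-5p, the abundant arm of an erythroid miRNA made within ANK1, stood at -0.05 ± 0.06 (adjusted p = 0.46, edgeR) and turned to 0.39, called, with library size; without control replicate 1 it was called at -0.13. Its other arm, miR-486-3p, fell by 0.70 ± 0.07 (adjusted p = 5.9e-07, edgeR) and lost its call with spike-ins (-0.01). miR-22-3p, a regulator of erythroid maturation, fell by 0.23 ± 0.06 (adjusted p = 0.0068, edgeR), a call that ended without knockdown replicate 1, without knockdown replicate 2 or without control replicate 1, and that turned to 0.20, called, with library size. miR-210-3p, the miRNA of the hypoxia response, stood at 0.09 ± 0.09 (adjusted p = 0.45, edgeR) and turned to 0.53, called, with library size.

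The reads of miR-486-5p give a yardstick within each library. Per read of miR-486-5p, reads of miR-144-3p numbered 2.47 and 2.30 after knockdown, against 1.45 and 1.32 in controls, a log2 change of 0.79. That of miR-451a was 3.18 and 3.27 after knockdown and 4.54 and 4.18 in controls, a log2 change of -0.43. Neither ratio overlapped between the groups (exact permutation p = 0.33 each, n = 2). Such non-overlap was common. Against 462 other miRNAs, the ratio of miR-144-3p was higher without overlap in 70.3%, and that of miR-451a lower in 72.3%. How the parting divides between the neighbours depends on the arm of miR-486 used. Per read of miR-486-3p, which itself fell, miR-451a had 24.6 and 27.9 reads in knockdown libraries, against 21.6 and 23.6 in control libraries, so its log2 change turned to 0.22. That of miR-144-3p was then 1.44, with 19.1 and 19.6 reads in knockdown libraries, against 6.88 and 7.43 in control libraries.

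The seed relative miR-101-3p had 15289 and 16567 reads in knockdown libraries, against 7558 and 13696 in control libraries, and was not called (log2 fold change -0.09 ± 0.06, adjusted p = 0.21, edgeR). Per read of miR-101-3p, reads of miR-144-3p numbered 2.72 and 2.45 after knockdown, against 1.53 and 1.40 in controls (log2 change of the ratio 0.82, exact permutation p = 0.33, n = 2). miR-4732-3p shares bases 2 to 7 with miR-125a-5p, a relative of the first known miRNA, lin-4 of the worm. miR-125a-5p had 13682 and 14972 reads in knockdown libraries, against 8025 and 12901 in control libraries. It fell by 0.24 ± 0.05 (log2 fold change and SE, adjusted p = 0.0015, edgeR) and turned to 0.20 with library size. The other seed relatives had too few reads to be tested: miR-125b-5p, miR-345-3p and miR-4319 for miR-4732-3p, and miR-6832-5p for miR-4732-5p.

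Rows for 2 spike-in RNAs, named as miR-427 of the frog and miR-14 of the fly, were also counted. How much was added, and at which step, is not given in the sources used here. Reads of miR-144-3p per read of frog miR-427 were 0.794 and 0.934 after knockdown and 0.285 and 0.375 in controls, and per read of fly miR-14 they were 6.18 and 9.18 after knockdown and 2.03 and 2.70 in controls. Both measures were higher after knockdown with no overlap, as was the ratio of miR-144-3p to 70.3% of 462 other miRNAs. Reads of miR-451a per read of frog miR-427 were 1.02 and 1.33 after knockdown and 0.892 and 1.19 in controls, and per read of fly miR-14 they were 7.95 and 13.1 after knockdown and 6.37 and 8.56 in controls. They were higher than in the control of the same guide RNA by 1.12 to 1.52 times, and the groups overlapped. The 2 spike-ins did not keep 1 ratio, with 7.78 and 9.82 reads of frog miR-427 per read of fly miR-14 after knockdown and 7.14 and 7.18 in controls. The spike-in scale is thus uncertain, and this ratio does not bound its error. The controls nearly shared it, yet differed in miR-451a per frog miR-427 (0.892 and 1.19). With spike-in scaling, the SE of the log2 fold change of miR-451a was 0.39 (edgeR).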

How the data were processed

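Each of the 4 libraries was deposited as raw read counts, 1 whole number per mature miRNA. Not given in the sources used here are the trimming, aligner, miRNA annotation, genome build and handling of reads that match several miRNAs. Small RNA was gel-purified, per the labels. Counts of 2366 human miRNAs were filtered with filterByExpr (at least 10 reads, total at least 15). The 464 miRNAs left held 99.9% of reads. They were scaled with TMM and tested with edgeR 4.0.16 (quasi-likelihood, R 4.3.3), with Benjamini-Hochberg adjustment over all 464 and calls at 0.05. Spike-ins stayed out of the fit except where named.

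Guide RNAs are separate polyclonal lines, so replicate numbers pair libraries by design; their deviations across miRNAs had a correlation of -0.11. With a single culture of each line and condition, p-values reflect only how these libraries vary, which may be technical. No library repeated another: chi-square per degree of freedom was 2.59 within knockdown and 5.31 within control. A count of 0 allows 3 reads. Intervals are exact (Clopper-Pearson, 95%) and cover counting error only.

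Of the 464 miRNAs, 404 matched 1 hairpin gene of GENCODE 29, and they came from 303 hairpins. Each hairpin was represented by its most abundant such miRNA, and those with another hairpin within 10 kb on the same strand formed the pairs. Hairpins were folded with RNAfold 2.7.2. The members, lists and rules were chosen with earlier results of these data known. Named miRNAs are the 6 members, the 4 nearest in pattern to miR-451a and to miR-144-3p, 4 other miRNAs listed as erythroid-enriched and seed relatives. Limits at 10000 reads, spike-in ratios, miR-486-3p as a yardstick and the pairs with at least 100 reads were chosen after seeing the data. Alternatives were RLE, library size, spike-ins, TMM without the locus, no top miRNA, DESeq2 1.42.0, guide RNA as a block, other filters, other pair distances, and leaving out each library.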

Additional observations from a re-analysis of the deposited data

How the results depend on the processing

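With miR-486-3p in place of miR-486-5p, the change of miR-451a turned to 0.22 and that of miR-144-3p was 1.44; the other alternatives run kept the direction of each log2 ratio of counts. Leaving out each library in turn, the change of miR-451a per miR-144-3p ranged from -1.29 to -1.15, that of miR-451a per miR-144-5p from -1.39 to -1.34, that of miR-144-5p per miR-144-3p from 0.06 to 0.23, that of miR-451a per miR-486-5p from -0.49 to -0.37, that of miR-144-3p per miR-486-5p from 0.72 to 0.86 and that of miR-144-3p per miR-101-3p from 0.75 to 0.90. With the replicate block, they were -1.22, -1.37, 0.15, -0.43, 0.79 and 0.82, as without it. Leaving out each library, the log2 fold change ranged from 0.68 to 0.78 for miR-144-3p, from 0.84 to 0.91 for miR-144-5p and from -0.51 to -0.47 for miR-451a, all called. With guide RNA as a block they were 0.74, 0.88 and -0.48, and the block changed no call among them. Where an arm held 1 library, it was assumed to vary like the other group.

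miR-451a was called in 12 of 14 alternatives; it was not called with library size (-0.046), and spike-ins turned it to 0.21. The median of all tested miRNAs lay 0.44 higher and 0.68 higher there. With library size miR-486-5p (0.39), miR-22-3p (0.20), miR-101-3p (0.35) and miR-125a-5p (0.20) turned positive. With spike-ins miR-486-5p (0.63), miR-22-3p (0.47), miR-17-5p (0.24), miR-452-5p (0.22), miR-20a-5p (0.16), miR-15b-3p (0.23), miR-101-3p (0.60) and miR-125a-5p (0.46) did. miR-210-3p turned to -0.058 without control replicate 1; miR-486-5p ranged from -0.13 to 0.0031 without 1 library. The cause was not tested.

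The 236 calls became 150 with DESeq2, 230 with the replicate block, 241 with the crossed pairing and 117 (without knockdown replicate 1) to 195 when 1 library was left out, 140 of them without control replicate 2. The split of 119 up and 117 down was 273 up and 41 down by library size, 186 and 8 by spike-ins, 48 and 102 by DESeq2, 49 and 68 without knockdown replicate 1, and 48 and 92 without control replicate 2; 70 rose without knockdown replicate 2. Among pairs with at least 100 reads, 5% parted as far as miR-451a and miR-144-3p, against 13.3% within 3 kb and 7.18% within 50 kb. Of the 181 pairs within 50 kb, 130 lay on chromosome 19. Depth limits miR-4732 and miR-451b to counts.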
